A study of Mus musculus with 6 samples.

Results

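The change described here is that of mouse bone marrow cultures between 6 and 24 h after heme was added, taken for each gene as its level on the 24 h heme array minus its level on the 6 h heme array, with the change of vehicle cultures over the same interval beside it. Of 19939 genes that a probe set named alone, 11516 were kept because their highest level on the 6 arrays of the series reached the median of the whole table, 5.37 on the log2 scale. The gene just inside this limit peaked at 5.375 and the gene just outside it at 5.3746. The heme change rests on 2 arrays of 6 and the vehicle change on another 2.

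All cells came from Spic(igfp/igfp) mice, so the vehicle cultures carried the same allele of Spic as the heme cultures. Marrow was grown with 20 ng/ml recombinant murine GM-CSF and 10% fetal calf serum. On day 6 it received heme, at a dose the labels type as 80 µm and that is read here as µM, or its vehicle, which was NH4OH at 10% in 0.15 M NaCl. At 6, 24 or 72 h the medium with its floating cells was removed and RNA was taken from the adherent cells, 1 array for each treatment and time. The labels do not give the age or sex of the mice, and nothing says whether the arrays came from 1 animal, a pool or several. Because each condition has 1 array, no difference below has an error or a test, and a 2-fold change (1 on the log2 scale) is only a limit of size.

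GM-CSF drives marrow progenitors to become macrophages, dendritic-like cells and granulocytes, and the adherent cells of such a culture are mostly macrophages. Heme, the iron-holding group of hemoglobin, enters macrophages when they digest old red cells. There it is cut by heme oxygenase, its iron leaves through ferroportin, and the repressor BACH1 releases antioxidant genes that are also driven by NRF2. Free heme is in addition known as an inflammatory signal, and SPI-C is a transcription factor of the red pulp macrophages of the spleen, which recycle iron.

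As checks on the series, array medians lay between 5.34 and 5.45, highest on the heme array of 6 h, and correlations between arrays across probe sets from 0.975 to 0.986. The 11 macrophage markers kept included Lyz2, Cd68 and Csf1r at 10.5 or more on every array. All 7 erythroid markers measured, 9 of 10 of T and NK cells, 7 of 8 of endothelium and 10 of 12 of mast cells stayed below 5.37 on all 6 arrays. So did 4 of 13 dendritic cell markers (Flt3, Zbtb46, Xcr1 and Cd209a) and 3 of 16 red pulp macrophage markers (Vcam1, C6 and Epor). The other 9 dendritic cell and 13 red pulp markers were kept.

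Between 6 and 24 h, 241 genes were at least 2-fold higher with heme (2.09% of the genes kept) and 129 at least 2-fold lower (1.12%). With vehicle the balance ran the other way: 41 genes were higher (0.356%) and 145 lower (1.26%). Over all genes kept the median heme change was 0.06, with an SD over genes of 0.41, and the median vehicle change was -0.01, with an SD of 0.33. Centring each array on its own median moved the median heme change to 0.17 and the heme counts to 326 higher and 97 lower. Thus 77.1% of the heme calls were increases under that scaling, against 65.1% as deposited. After each of the 3 other normalizations tried, 225 of the 241 genes and 97 of the 129 were still past 2-fold.

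The heme and vehicle changes use different arrays, and across the 11516 genes, which are not independent, their correlation was 0.438. Of the 241 genes higher with heme, 19 were also at least 2-fold higher with vehicle, which is 7.88% of the heme list and 46.3% of the vehicle list. Only Ppbp was 2-fold lower there. Of the 129 lower with heme, 33 were lower with vehicle, 25.6% of the heme list and 22.8% of the vehicle list, and 0 were 2-fold higher. The direction of the vehicle change was the same for 218 of the 241 (90.5%) and for 103 of the 129 (79.8%). Of all genes kept, 47.9% had a vehicle change above 0. The heme change lay at least 1 above the vehicle change for 150 genes (1.3%) and at least 1 below it for 99 (0.86%). Under median-centring these counts were 256 and 62, and the share of the first kind moved from 60.2% to 80.5%.

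**Figure D1:**
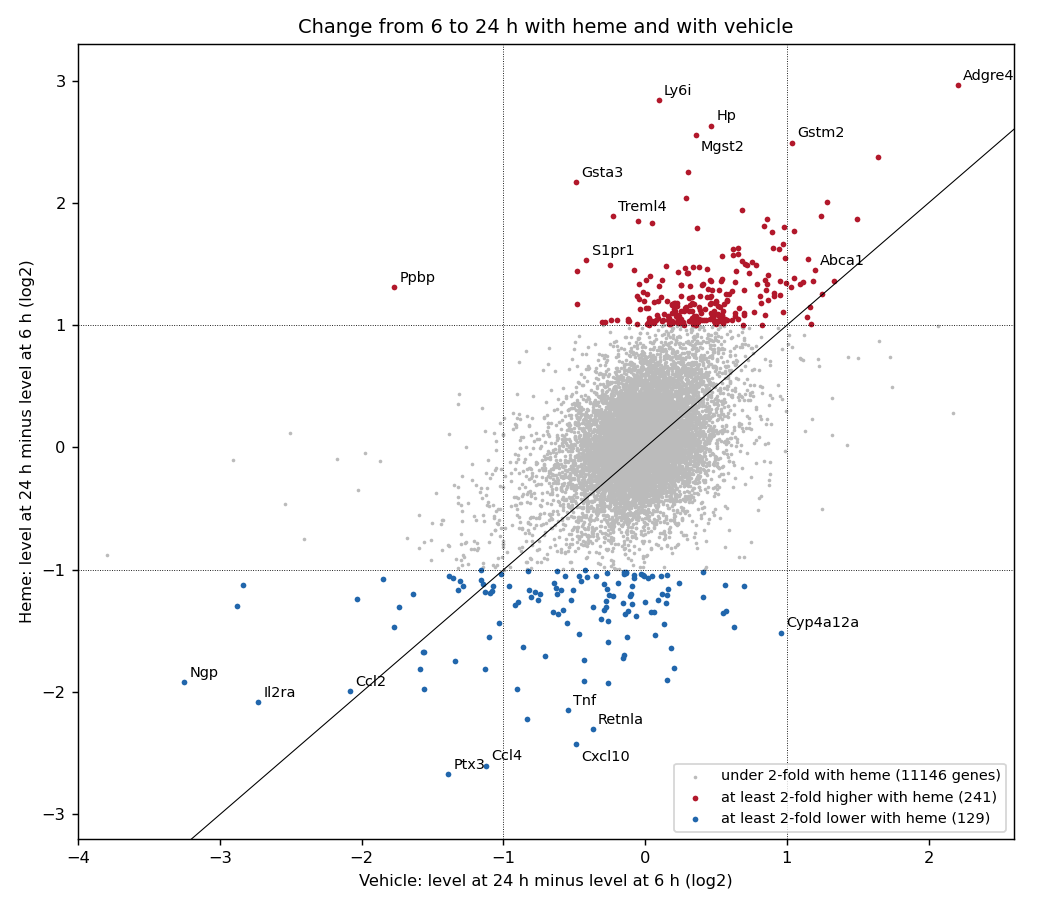
Each point is 1 of the 11516 genes kept. The x axis is the level at 24 h minus the level at 6 h with vehicle, the y axis the same with heme, both log2. Dotted lines mark 2-fold and the diagonal marks equal changes. Red points (241 genes) are at least 2-fold higher with heme and blue points (129) at least 2-fold lower. Ly6i, Hp and Mgst2 lie far above the diagonal, Ppbp at the upper left, and Ngp at the lower left, more than 2-fold lower on both axes.

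Among the genes with the greatest increase were surface and secreted proteins of myeloid cells that moved little with vehicle. Ly6i, which encodes a small lipid-anchored protein of the Ly6 family, read 6.00 at 6 h, 8.84 at 24 h and 8.65 at 72 h with heme, and 5.82, 5.92 and 6.43 with vehicle. At 6 h the treatments were alike, and at 24 h the heme array stood alone, a 7.17-fold increase. Ly6 genes have close copies, and hybridization to them was not tested. Hp, haptoglobin, which binds hemoglobin set free from red cells, read 7.27, 9.90 and 10.30 with heme and 6.98, 7.44 and 7.64 with vehicle. Its heme change of 2.63 compares with 0.46 with vehicle. Chil1, a chitinase-like secreted protein, read 7.73, 9.98 and 9.99 with heme and 6.78, 7.08 and 8.10 with vehicle. Its increase came mostly before 24 h with heme and after 24 h with vehicle.

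Treml4, a receptor of the TREM family on macrophages that binds dying cells, read 7.54, 9.43 and 9.78 with heme. With vehicle it read 5.36, 5.13 and 5.71, so that both early vehicle levels lay below 5.37 and were not above the level filter. Its heme change was 1.89. Adgre4, an adhesion receptor related to F4/80, had the largest change of all genes kept, 2.96, reading 6.28, 9.24 and 9.73 with heme. With vehicle it read 4.94, 7.15 and 8.81, an increase of at least 1.77, since the 6 h level was below 5.37. Adgre4 was thus higher at 24 h in both treatments. Saa3, an acute phase protein, was likewise higher in both: 9.44, 11.81 and 11.63 with heme and 6.66, 8.30 and 9.49 with vehicle.

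Several enzymes that join glutathione to reactive compounds were higher with heme as well. Mgst2, a membrane-bound glutathione transferase that can also make leukotriene C4, read 7.08, 9.64 and 9.80 with heme and 7.24, 7.60 and 7.43 with vehicle. Gstm2 read 6.87, 9.36 and 8.63 with heme and 6.46, 7.49 and 7.19 with vehicle. Gsta3 read 4.97, 7.14 and 8.11 with heme, and 5.02, 4.54 and 4.78 with vehicle, all 3 below 5.37. Mgst2 and Gsta3 were therefore at or below the vehicle level at 6 h and apart from it at 24 h, with heme changes of 2.56 and at least 1.77. Gstm2 was up by 2.49 with heme and by 1.03 with vehicle.

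With levels below 5.37 raised to that value before ranking, which puts Gsta3 outside them, the remaining genes of the 15 largest increases were Mettl7a1 (2.04 with heme, 0.28 with vehicle), Sdc1 (2.01 and 1.29), Acpp (1.95 and 0.68), Adgre5 (1.90 and 1.24), Arrdc3 (1.87 and 1.49), Ephx1 (1.87 and 0.86) and Osbpl3 (1.85 and -0.05). Sdc1 is the proteoglycan syndecan-1, Adgre5 the adhesion receptor CD97 and Osbpl3 an oxysterol-binding protein. Sdc1, Adgre5 and Arrdc3 were past 2-fold in both treatments. Osbpl3 read 5.39 at 6 h and 7.24 at 24 h with heme, against 5.53 and 5.48 with vehicle.

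Further genes were singled out because their heme change exceeded the vehicle change most, again with levels below 5.37 raised to it. Without that step the differences of Gsta3 (2.66) and Treml4 (2.12) were larger than those of S1pr1 and Arg2 (1.94 and 1.93). S1pr1, a receptor for sphingosine-1-phosphate, read 5.50, 7.03 and 9.27 with heme and 6.21, 5.79 and 6.57 with vehicle. Arg2, mitochondrial arginase, read 6.13, 7.58 and 7.28 with heme and 6.20, 5.72 and 5.34 with vehicle. Ppbp, a chemokine of platelets and some macrophages, read 7.87, 9.17 and 11.37 with heme and 6.75, 4.97 and 6.29 with vehicle. All 3 were higher with heme at 24 h than at 6 h and lower with vehicle, and for Ppbp the vehicle change was a decrease of at least 1.37. Among 5 megakaryocyte and platelet markers, Pf4 was also higher with heme, by 1.24 against -0.06, while Itga2b and Tubb1 changed by 0.16 and 0.23 with heme at levels close to 5.37.

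**Figure D2:**
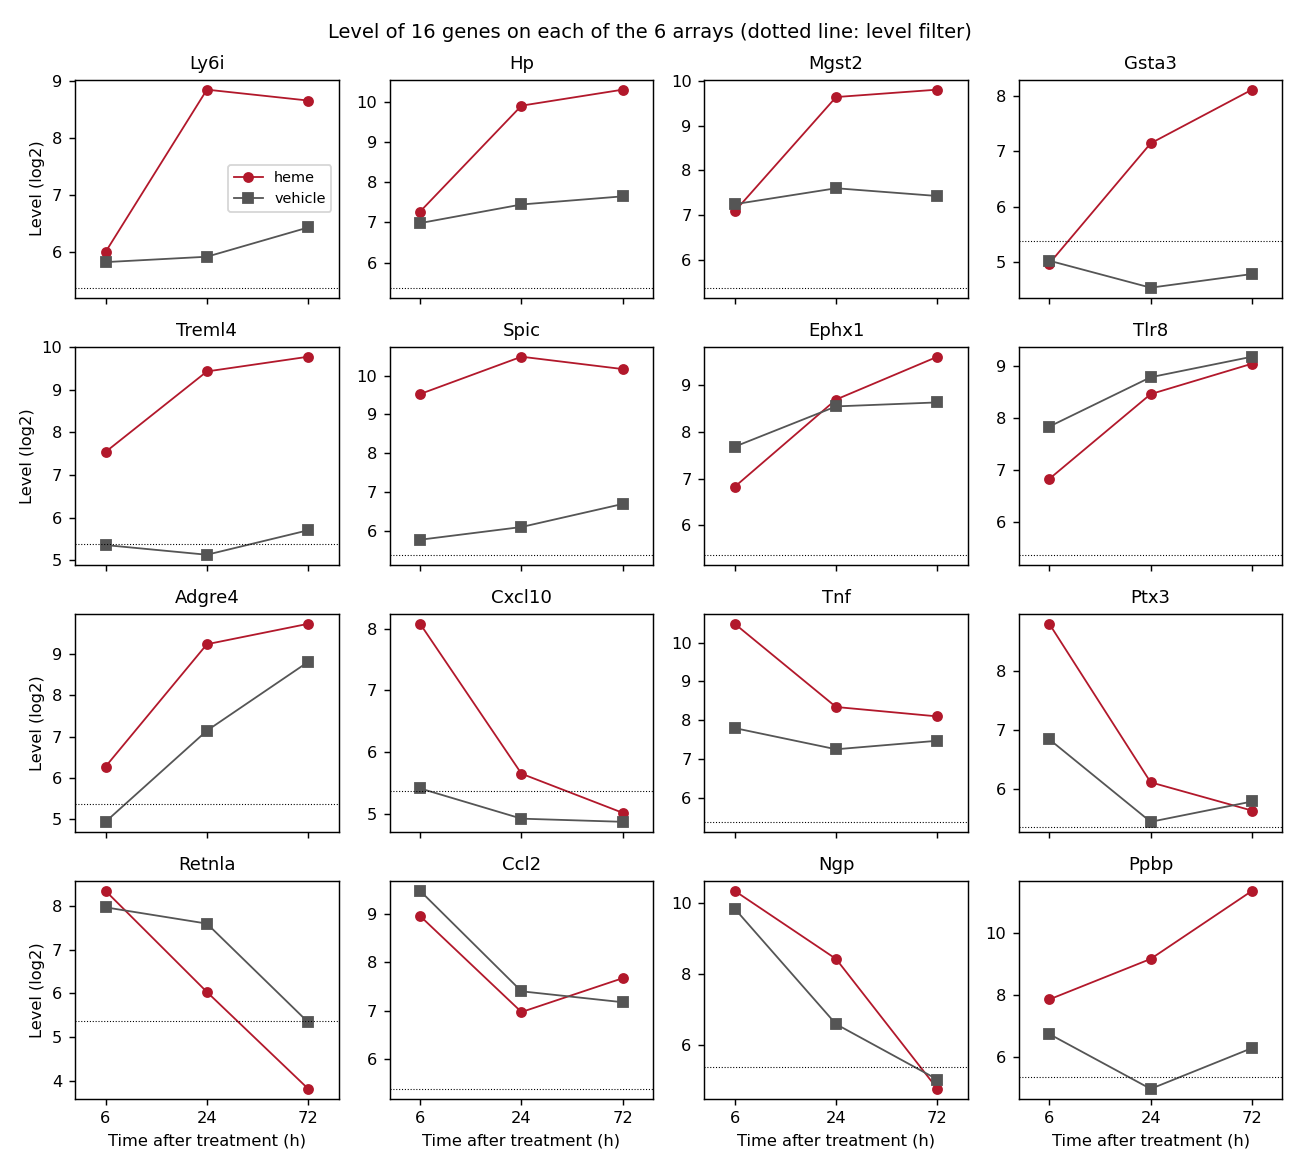
Level (log2, y axis) of 16 genes at 6, 24 and 72 h after treatment (x axis) with heme (red circles) and vehicle (grey squares), 1 array a point, so that no error can be drawn. Each panel has its own y axis and the dotted line is the level filter of 5.37. The heme line leaves the vehicle line after 6 h for Ly6i, Hp, Mgst2 and Gsta3, and comes down to or near it for Cxcl10 and Ptx3.

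Where the changed genes stood against vehicle differed between the increases and the decreases. These comparisons use the same heme arrays as the heme change, and the limit of 0.5 on the log2 scale was chosen after the values were seen, so the counts are a description only. Of the 241 genes higher at 24 h, 117 (48.5%) were at least 0.5 below vehicle at 6 h and within 0.5 of it at 24 h, a course followed by 8.88% of all genes kept. Another 39 (16.2%) were within 0.5 at 6 h and above at 24 h, against 3.02% of all genes kept. Ly6i, Hp and Mgst2 were among them. A further 23 (9.54%) were above at both times, against 1.91% of all genes kept, as were Treml4, Chil1 and Saa3. Among the genes of the first kind, Ephx1, an epoxide hydrolase, was 0.86 below vehicle at 6 h (6.83 against 7.68) and 0.15 above it at 24 h (8.69 against 8.55). Adgre5 read 6.68 with heme and 7.28 with vehicle at 6 h, and 8.58 and 8.52 at 24 h. Tlr8, a sensor of single-stranded RNA in endosomes, read 6.83 with heme and 7.83 with vehicle at 6 h, and 8.45 and 8.78 at 24 h. For genes such as these the heme level had come to within 0.5 of the vehicle level by 24 h. It did not always stay there: at 72 h Ephx1 read 9.61 with heme and 8.63 with vehicle. Adgre5 read 9.60 and 8.39 at that time, and Tlr8 9.04 and 9.17.

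Of the 129 genes lower at 24 h, 35 (27.1%) were at least 0.5 above vehicle at 6 h and within 0.5 at 24 h, and 25 were within 0.5 at 6 h and below at 24 h. The first course was followed by 2.65% and the second by 2.74% of all genes kept. A further 16 (12.4%) were above vehicle at both times and 11 (8.53%) passed from above to below. Over all genes kept these shares were 1.91% and 0.156%.

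**Figure D3:**
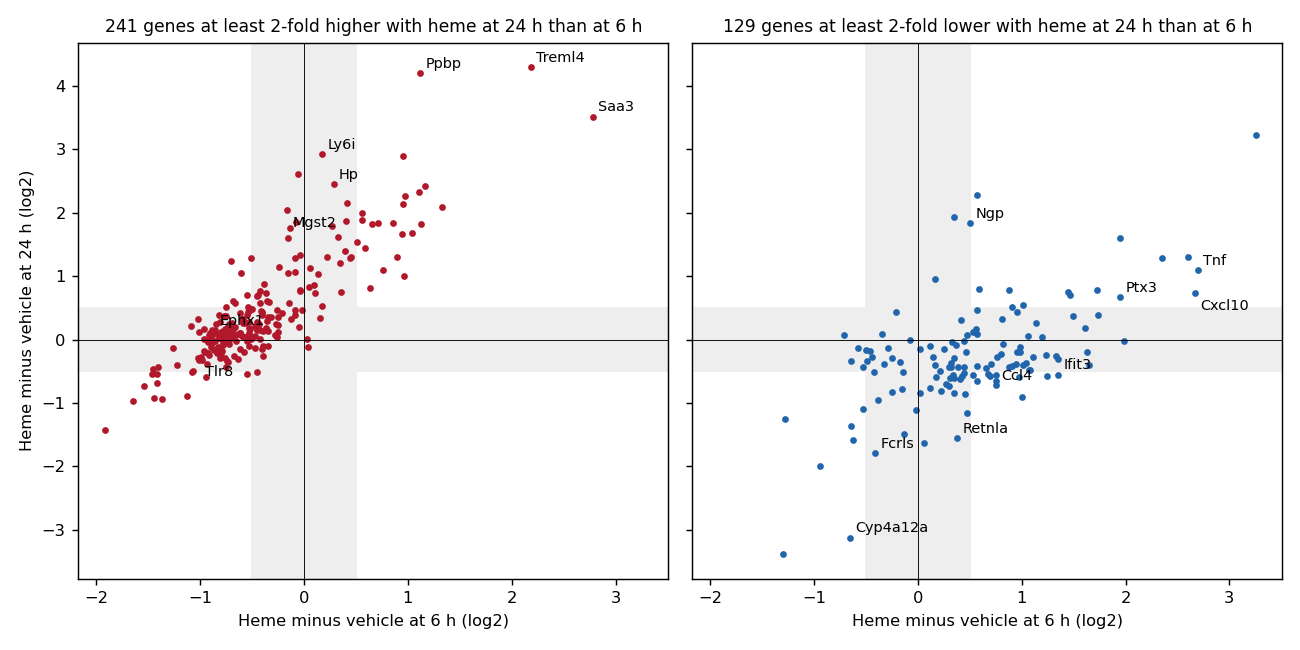
Heme minus vehicle at 6 h (x axis) and at 24 h (y axis), both log2, for the 241 genes at least 2-fold higher (left, red) and the 129 at least 2-fold lower (right, blue) with heme at 24 h than at 6 h. Grey bands mark differences within 0.5. The red points are densest to the left of 0 on the x axis and near 0 on the y axis, and the blue points spread to the right of 0.

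Of the 15 largest decreases, 4 were in genes of the cytokine and chemokine list driven by NF-kB, a central factor of inflammation. Tnf, the cytokine tumor necrosis factor, read 10.49, 8.34 and 8.10 with heme and 7.79, 7.25 and 7.47 with vehicle. At 24 h it was nearer the vehicle level and still 1.09 above it. Ptx3, a secreted pattern recognition protein, had the largest decrease, 2.67 below its 6 h level at 24 h, reading 8.79, 6.12 and 5.64 with heme and 6.84, 5.46 and 5.80 with vehicle. Ccl4, a chemokine for T cells and monocytes, read 10.57, 7.97 and 6.91 with heme and 9.81, 8.69 and 8.03 with vehicle, so that it passed from above vehicle to below it. Ccl2, the main monocyte chemokine, read 8.96, 6.97 and 7.67 with heme and 9.49, 7.40 and 7.17 with vehicle. Its heme and vehicle changes were nearly the same, -1.99 and -2.09.

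Across the 23 cytokine and chemokine genes kept, 7 were 2-fold lower with heme and 1, Saa3, was higher, with a median of -0.45. With vehicle 6 were lower and 2 higher, with a median of -0.54, so the list as a whole moved about as much in either treatment. Several members stayed far above vehicle at both times. Cxcl3, a neutrophil chemokine, was 3.84 above vehicle at 6 h and 4.28 above at 24 h, and Acod1, which makes itaconate, was 4.31 and 3.74 above. Il1b, which encodes an interleukin-1, was 0.67 higher at 24 h with heme and 1.23 higher with vehicle. Of 18 NF-kB subunits and feedback regulators, 1 was 2-fold lower with heme and 0 with vehicle, with a heme median of -0.04 whose sign turned with the scaling. Malt1, a protease that activates NF-kB, read 10.66 and 8.75 with heme and 9.42 and 8.99 with vehicle at 6 and 24 h.

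Interferon-stimulated genes, whose products block viruses, were near the bottom of the 28 pathway lists by median heme change. With the deposited values theirs was the lowest by a narrow margin, -0.628 against -0.623 for mitosis genes. Under quantile normalization the medians of cholesterol synthesis and mitosis were lower still, and under loess that of cholesterol synthesis. Of 27 kept, 8 were 2-fold lower with heme and 0 higher, with a median of -0.63, and with vehicle 0 moved 2-fold in either direction, with a median of 0.07. Of the 8, Ifit1, Ifit2, Cxcl9 and Rsad2 reached 5.37 only on the 6 h heme array. These genes were kept through that array alone, so they could only be lower with heme at 24 h. With levels below 5.37 raised to it, Ifit2 and Cxcl9 were not past 2-fold. The median difference of the 27 from vehicle was 0.75 at 6 h and -0.03 at 24 h. In RNA of all adherent cells together, fewer cells of a type and less RNA per cell cannot be told apart. Cxcl10, a chemokine for activated T cells, read 8.08, 5.65 and 5.02 with heme and 5.41, 4.92 and 4.87 with vehicle. Ifit3, an antiviral RNA-binding adaptor, read 7.04, 5.69 and 5.73 with heme and 5.69, 6.24 and 6.28 with vehicle, lower with heme and higher with vehicle. For both genes the 6 h heme array was the highest of the 6. Ifit1, a cap-sensing antiviral protein, read 6.48 at 6 h and 4.68 at 24 h with heme, a decrease of at least 1.11, and was below 5.37 on the other arrays. Rsad2, the antiviral enzyme viperin, was at 6.59 and 5.06, a decrease of at least 1.21.

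The other 4 members past 2-fold were Oasl2 (-1.55 with heme, -0.13 with vehicle), Rtp4 (-1.30 and -0.28), Ifit2 (-1.27) and Cxcl9 (-1.11). For Ifit2 and Cxcl9 the 24 h heme level and both vehicle levels were below 5.37, which leaves decreases of at least 0.58 and 0.73. Outside the list, Gbp5, an interferon-induced GTPase, was at 7.24 and 5.60 with heme and 5.61 and 5.80 with vehicle. Ifi207, an interferon-inducible nuclear protein, was at 7.80 and 6.68 with heme and 7.74 and 8.31 with vehicle. Gbp5 thus came down to the vehicle level, while Ifi207 started level with vehicle and ended 1.63 below it. The regulators of the pathway moved less: Stat2 by -0.43, Irf9 by -0.11, Irf1 by 0.04 and Irf7 by -0.50 with heme.

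The promoters of these genes were searched for the core of the interferon-stimulated response element, 2 copies of GAAA with any 2 bases between them, on both strands of the 300 bases from 250 before to 50 after the start site (RefSeq, GRCm38.p6). It was present in 11 of the 21 kept members with a promoter in the table, against 3.8% of the 9291 genes kept that have one (3.44% of all 32851 promoters, several of which can belong to 1 gene), and in 9 of 92 genes 2-fold lower with heme (9.78%) against 9 of 196 genes 2-fold higher (4.59%). The windows of the 4 members past 2-fold that hold it are shown because their levels were high at 6 h with heme, each 5′ to 3′ on the strand of the gene with the match and 20 bases on either side, the match in capitals (a pair of TTTC marks the same core on the other strand):
Cxcl10, chr5:92349073-92349122, minus strand: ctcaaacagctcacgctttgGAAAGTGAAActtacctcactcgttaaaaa
Ifit1, chr19:34640765-34640814, plus strand: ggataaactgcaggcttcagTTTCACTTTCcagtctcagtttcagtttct
Ifit3, chr19:34583353-34583402, plus strand: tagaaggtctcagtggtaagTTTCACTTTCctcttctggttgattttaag
Rsad2, chr12:26456543-26456592, minus strand: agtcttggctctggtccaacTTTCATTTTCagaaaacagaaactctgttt
The matches begin at -213, -104, -156 and -120 from the start site, all upstream of the transcribed part. Ifit1 and Ifit3 hold a second match within the searched stretch. Oasl2, Ifit2 and Cxcl9 held none. The 4 genes shown are also among the 9 genes 2-fold lower with a match, so the 2 counts overlap. The other list members with a match changed less than 2-fold with heme. The list was drawn up as genes stimulated by interferon, so a high share in it is no separate result. A match is a stretch of letters and no measure of binding, and a part of this element in the decreases was not tested.

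**Figure D4:**
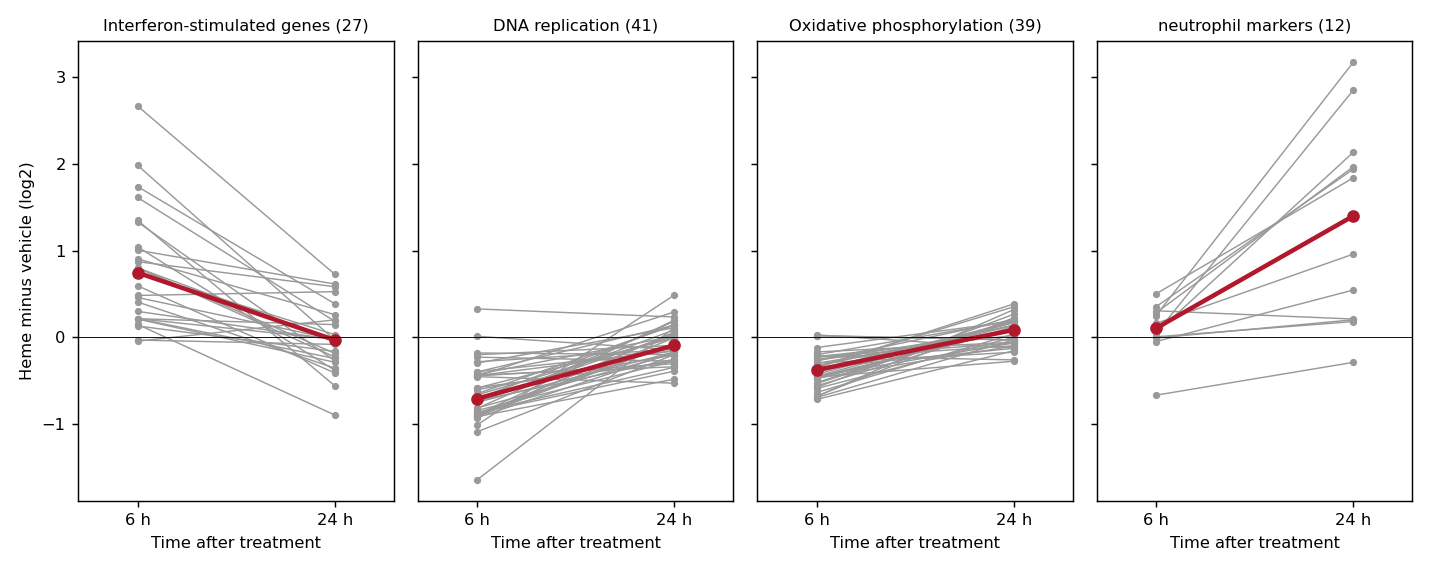
Heme minus vehicle (log2, y axis) at 6 and 24 h (x axis) for the members kept of 4 gene lists, 1 grey line a gene, with the list median in red. The median of the 27 interferon-stimulated genes goes from 0.75 to -0.03, that of 41 DNA replication genes from -0.70 to -0.09, that of 39 oxidative phosphorylation genes from -0.37 to 0.09 and that of 12 neutrophil markers from 0.11 to 1.40.

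Other genes among the largest decreases stood below the vehicle level at 24 h, some of them already at 6 h. Retnla, a resistin-like protein of alternatively activated macrophages, read 8.34, 6.03 and 3.82 with heme and 7.96, 7.59 and 5.34 with vehicle. Fcrls, a scavenger receptor of the Fc receptor-like family, read 8.08, 5.86 and 4.99 with heme and 8.48, 7.65 and 6.08 with vehicle. Both came down in each treatment, but earlier with heme. Cyp4a12a, a fatty acid hydroxylase, read 6.84, 5.33 and 3.52 with heme and 7.50, 8.46 and 4.67 with vehicle, so the treatments went opposite ways by 24 h. Its neighbor Cyp4a12b, nearly identical in sequence, gave -1.47 with heme and 0.63 with vehicle, and the pair cannot be counted as independent. Airn, a long noncoding RNA of an imprinted locus, read 7.89, 5.98 and 6.83 with heme and 6.23, 6.39 and 6.85 with vehicle.

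Some of the largest decreases belonged to both cultures. Il2ra, the interleukin-2 receptor alpha chain, was at 7.59 and 5.50 with heme and 7.79 and 5.06 with vehicle at 6 and 24 h. Cldn1, a tight junction protein, was at 7.45 and 5.64 with heme and 7.34 and 5.74 with vehicle. Mall (-1.98 with heme, -1.56 with vehicle) and Stk39, a kinase of ion transport (-1.81 and -1.13), were past 2-fold in both, and Vcan, a matrix proteoglycan of monocytes, was at -1.97 and -0.90. For Il2ra and Cldn1 the treatments differed by less than 0.5 at either time.

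Neutrophil markers had medians below 0 in both treatments, the lower one with vehicle. Of 12 kept, 3 were 2-fold lower with heme, with a median of -0.52, and 8 with vehicle, with a median of -2.03. Ngp, a granule protein of neutrophil precursors, read 10.34, 8.42 and 4.75 with heme and 9.83, 6.58 and 5.02 with vehicle. S100a8, a calcium-binding protein of neutrophils and monocytes, read 12.22, 11.88 and 10.09 with heme and 11.94, 9.91 and 9.38 with vehicle. Camp, an antimicrobial peptide, changed by -1.29 with heme and -2.88 with vehicle. The treatments were close at 6 h and apart at 24 h, the median difference being 0.11 and then 1.40. Mmp8, on the same list, went the other way, from 10.37 to 11.25 with heme and from 11.03 to 11.53 with vehicle. With heme 2 of the 12 were above 0, beside 56.9% of all genes kept. The summed linear level of the 15 measured went from 13882 to 10974 with heme and from 12994 to 5132 with vehicle. These sums include Mmp8, which at 24 h with vehicle read higher than S100a8 (11.53 against 9.91). Ly6g, Cxcr2 and Elane were at 5.45 or less throughout, and Ctsg, Prtn3 and Retnlg were below 5.37 on all 6 arrays. Lcn2, a siderophore-binding protein of neutrophil granules counted above with the cytokines, changed by 0.12 with heme and -2.51 with vehicle. The part of granulocyte content in the other differences from vehicle was not tested.

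Dendritic cell markers had medians below 0 in both, -0.53 with heme and -0.34 with vehicle. Gene by gene, the heme change lay above the vehicle change for 6 of the 9 kept, beside 60.5% of all genes kept. The median of that difference was 0.60, and its sign turned with a stricter level filter. Of the 9, 2 were 2-fold lower with heme and 3 with vehicle. Ccr7, which guides cells to lymph nodes, was higher by 1.24 with heme and 0.26 with vehicle. Ccl17, a chemokine of these cells, read 12.64, 11.51 and 6.54 with heme and 12.07, 9.23 and 6.44 with vehicle. Among 11 macrophage markers, C5ar1, the receptor for complement C5a, was past 2-fold with heme (1.21, against 0.87 with vehicle), and the list medians were 0.64 and 0.24.

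Members of the NRF2 and BACH1 target list differed in their courses, and most stayed under 2-fold after 6 h. Over all genes kept, 2.09% were 2-fold higher with heme. Of 32 kept, 4 were 2-fold higher with heme and 0 lower, with a median of 0.17, and with vehicle 0 were higher and 1 lower, with a median of -0.01. The 4 were Gsta3, Ephx1, Cbr3, a carbonyl reductase (1.43 with heme, 0.29 with vehicle), and Gstm1 (1.10 and 0.63). Hmox1, heme oxygenase-1, read 13.30, 13.18 and 13.29 with heme and 10.54, 10.44 and 11.01 with vehicle, level from 6 h on. Gclm, which makes part of the glutathione-synthesizing enzyme, was 2.24 above vehicle at 6 h and changed by 0.24, and Slc7a11, the cystine importer, was 2.07 above and changed by -0.07. Me1, the NADPH-making malic enzyme, read 6.62 and 7.33 with heme and was below 5.37 with vehicle at all 3 times. Nqo1, a quinone reductase and the 1 member counted as lower with vehicle, changed by -0.10 with heme. Its vehicle level went from 5.72 to 4.61, below 5.37, a decrease of at least 0.35. Txn1, Keap1, Fth1 and Bach1 differed from vehicle by 0.14 or less at both times.

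The core of the antioxidant response element, TGACNNNGC, was found on either strand in the promoters of 12 of 28 genes of this list, against 16.7% of the genes kept. The shares of the genes 2-fold higher and 2-fold lower with heme were 14.3% and 17.4%, close to that of the genes kept. Windows are shown in the same way for Gsta3, which was past 2-fold, Mgst1, whose change was smaller, and Gclm, which was above vehicle from 6 h (GCNNNGTCA is the core on the other strand):
Gsta3, chr1:21240444-21240492, plus strand: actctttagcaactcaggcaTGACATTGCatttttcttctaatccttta
Mgst1, chr6:138140451-138140499, plus strand: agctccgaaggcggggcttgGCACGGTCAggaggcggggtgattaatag
Gclm, chr3:122245403-122245451, plus strand: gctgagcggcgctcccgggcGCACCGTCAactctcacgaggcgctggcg
Mgst1, a microsomal glutathione transferase, changed by 0.77 with heme and 0.33 with vehicle. The core was not found in the searched stretch of Ephx1, Cbr3, Gstm1 and Slc7a11, and no promoter of Hmox1 was searched.

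Of 32 genes of heme and iron handling kept, 3 were 2-fold higher with heme and 0 lower, with a median of 0.30, against 2 higher and a median of 0.06 with vehicle. With heme 23 of the 32 were above 0, as were 56.9% of all genes kept, and the median difference between the changes was 0.09, that of all genes kept also being 0.09. Blvrb, which reduces biliverdin made from heme, read 9.78, 10.81 and 10.36 with heme and 9.22, 8.92 and 9.56 with vehicle. Urod, an enzyme of heme synthesis, read 6.85, 7.86 and 7.82 with heme and 7.73, 7.74 and 7.43 with vehicle, and thus reached the vehicle level from below. Hfe, an iron sensor at the cell surface, was higher in both, by 1.34 and 1.09. Tfrc, the transferrin receptor, read 6.05, 6.87 and 6.67 with heme and 7.56, 6.89 and 6.72 with vehicle. It was low at 6 h with heme and no different from vehicle, within 0.02, at 24 h. Slc40a1, the iron exporter ferroportin, was 9.61 and 10.35 with heme and 6.79 and 8.51 with vehicle, so the gap to vehicle narrowed. Slc48a1, a heme carrier of the lysosome, changed by 0.71 and 0.03, and Alas1, the first enzyme of heme synthesis, by 0.82 and 0.00. The ferritin chains Fth1 and Ftl1 changed by -0.05 and -0.22 with heme.

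Spic itself read 9.53, 10.49 and 10.17 with heme and 5.76, 6.09 and 6.69 with vehicle. Its change of 0.96 with heme, against 0.33 with vehicle, fell just short of 2-fold and came on top of a difference present at 6 h. The sources used here do not say where the Spic probe set lies with respect to the altered allele. Among 22 transcription factors of myeloid cells, Irf8, which steers monocytes and dendritic cells, was 2-fold higher with heme (1.05, against 0.25 with vehicle) and Irf4, a factor of alternative activation, 2-fold lower (-1.24 and -0.76). Irf8 was 0.79 below vehicle at 6 h and 0.01 above at 24 h.

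Oxidative phosphorylation genes lay mostly above 0 with heme, none by 2-fold. Of 39 oxidative phosphorylation genes, 35 were above 0 with heme, beside 56.9% of all genes kept. Their heme median was 0.41 with 0 past 2-fold, and the vehicle median was -0.01. The 6 h heme levels were the low ones: Atp5c1, a subunit of ATP synthase, read 10.11, 11.09 and 10.71 with heme and 10.79, 10.76 and 10.60 with vehicle. Sdhd, a subunit of complex II, was at 8.30 and 9.12 with heme and 8.87 and 8.85 with vehicle. The median of the list was -0.37 against vehicle at 6 h and 0.09 at 24 h. Median-centring of the arrays moved the heme median of the list to 0.53.

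Of all genes kept, 2.09% were 2-fold higher with heme and 0.356% with vehicle. Of 26 genes of glycolysis and the hypoxia response, 5 were 2-fold higher with heme and 0 with vehicle, with medians of 0.53 and 0.26. They were Tpi1 (1.32 with heme, 0.32 with vehicle), Pfkl (1.21 and 0.58), Bnip3 (1.11 and 0.49), Pdk1 (1.08 and 0.22) and Aldoc (1.02 and 0.24). Tpi1, Pfkl and Aldoc are glycolytic enzymes, Pdk1 closes the entry of pyruvate into mitochondria, and Bnip3 marks mitochondria for removal. Tpi1 read 9.61, 10.93 and 10.30 with heme and 10.13, 10.45 and 9.78 with vehicle, from below vehicle at 6 h to above it at 24 h. All 5 were lower on the 72 h heme array than on that of 24 h, from 10.18 to 9.70 for Bnip3 and from 8.90 to 8.78 for Pfkl. With vehicle Tpi1, Bnip3, Pfkl and Pdk1 were also lower at 72 h than at 24 h. Bnip3 went from 9.44 to 8.98 and Pfkl from 8.48 to 8.29.

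**Figure D5:**
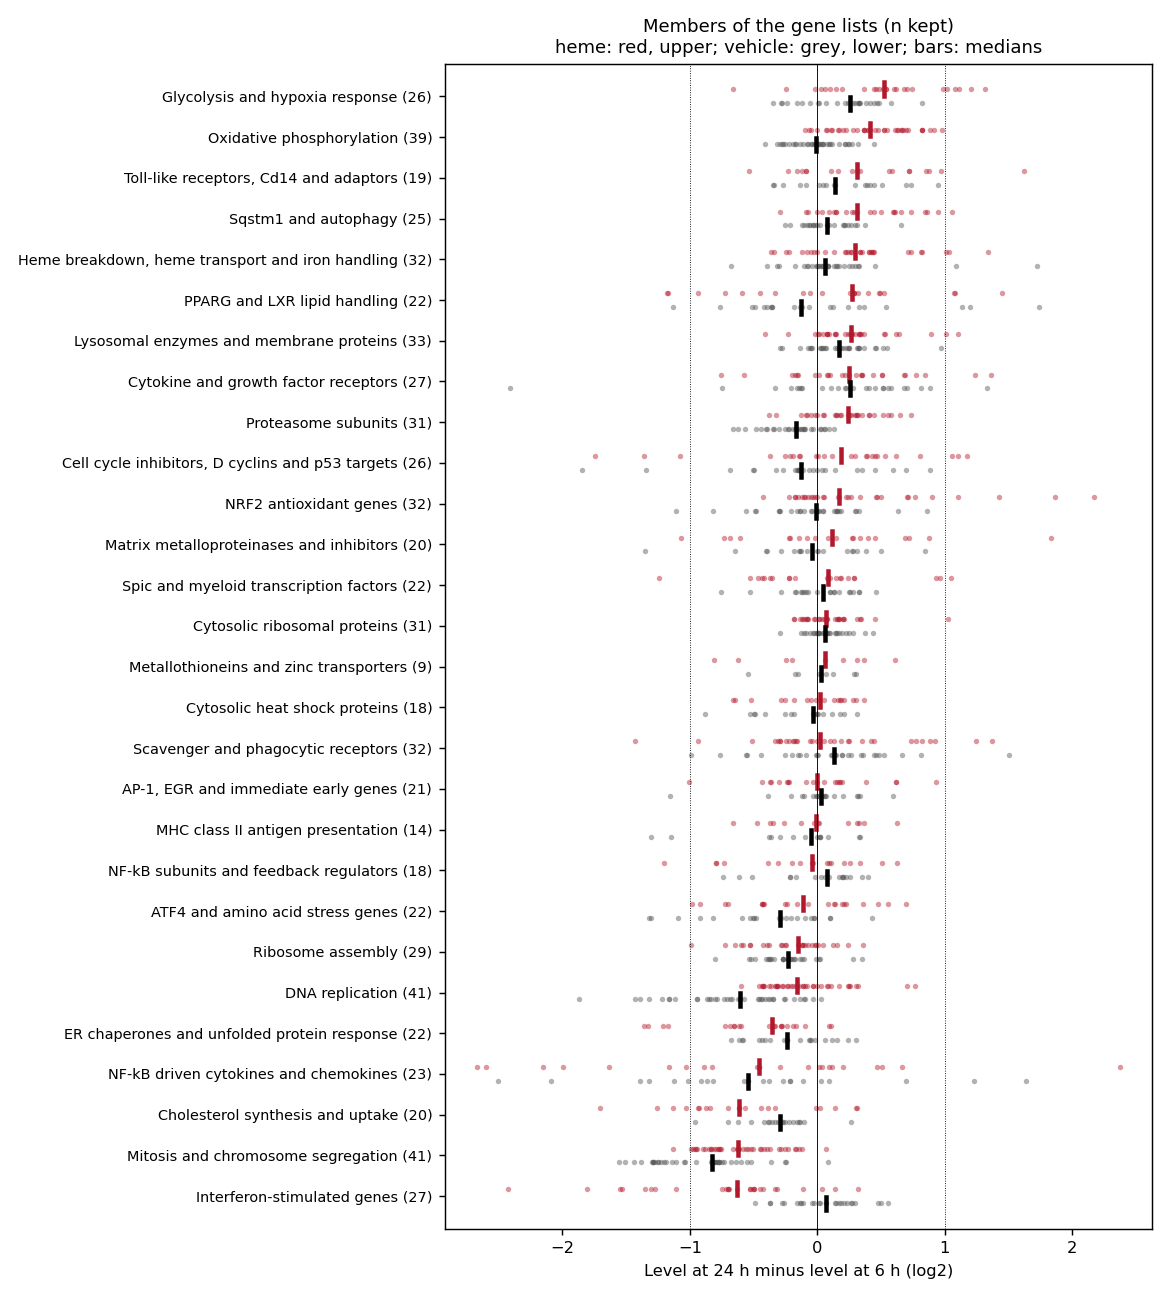
Level at 24 h minus level at 6 h (log2, x axis) for the members kept of the 28 pathway lists (y axis, number kept in brackets), with heme in red above and vehicle in grey below, 1 point a gene and bars at the medians. Dotted lines mark 2-fold. Interferon-stimulated genes have the lowest heme median of these deposited values (-0.63, with mitosis genes at -0.62) and a vehicle median of 0.07. Under quantile normalization cholesterol synthesis and mitosis are lower, and under loess cholesterol synthesis. Oxidative phosphorylation lies at 0.41 with heme and -0.01 with vehicle.

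Few genes of the protein-degrading machinery passed 2-fold, as was the case over all genes kept, of which 2.09% were higher with heme. Of 31 proteasome subunits, 23 were above 0 with heme, beside 56.9% of all genes kept. Their median was 0.24 with heme against -0.17 with vehicle, and 0 were past 2-fold in either. Of 25 autophagy genes, Map1lc3b, which coats autophagosomes, was past 2-fold with heme at 1.05 (9.90 to 10.95), against 0.24 with vehicle. Of 33 lysosomal genes, 2 were 2-fold higher with heme, the protease Ctsh (1.11, against 0.97) and the glucosidase Gaa (1.01, against 0.17).

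Cholesterol synthesis genes had medians below 0 in both treatments, the lower one with heme. Of 20 genes kept, 4 were 2-fold lower with heme and 0 with vehicle, with medians of -0.61 and -0.29. Over all genes kept, 1.12% were 2-fold lower with heme and 1.26% with vehicle. Idi1, which isomerizes the isoprene unit of sterols, read 9.21, 7.51 and 5.92 with heme, and 8.78 at 6 h and 8.08 at 24 h with vehicle. Cyp51 (-1.26 with heme, -0.27 with vehicle), Fdps (-1.13 and -0.96) and Hmgcs1 (-1.03 and -0.14) were the others, all enzymes of the same route. Idi1, Cyp51 and Hmgcs1 were above vehicle by 0.28 to 0.43 at 6 h and below it by more than 0.5 at 24 h. Abca1, which exports cholesterol, was higher in both treatments, by 1.45 and 1.20.

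Chaperones of the endoplasmic reticulum also had medians below 0. Of 22 kept, 4 were 2-fold lower with heme, with a median of -0.36, and 0 with vehicle, with a median of -0.24. The shares of all genes kept that were 2-fold lower were 1.12% with heme and 1.26% with vehicle. Creld2 changed by -1.36 with heme and -0.62 with vehicle, Pdia4 by -1.33 and -0.58, Manf by -1.21 and -0.26 and Hyou1 by -1.17 and -0.59. All 4 are targets of the unfolded protein response. Hspa5, its best known target, read 11.43 and 10.75 with heme and 11.49 and 11.11 with vehicle, under 2-fold. Of 22 genes driven by the stress factor ATF4, 0 were past 2-fold with heme and 3 were lower with vehicle.

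Cell cycle lists had medians below 0 in both cultures, and more of their genes passed 2-fold with vehicle. Of 41 DNA replication genes, 0 were past 2-fold with heme, with a median of -0.16, and 8 were lower with vehicle, with a median of -0.61. Mcm6, a subunit of the replicative helicase, read 6.09, 5.98 and 5.78 with heme and 7.73, 5.86 and 5.42 with vehicle. Tyms, which makes thymidylate, read 6.69 and 6.80 with heme and 7.70 and 6.31 with vehicle at 6 and 24 h. Both were low with heme by 6 h, and vehicle came down to the heme level or below it by 24 h. Of 41 mitosis genes, 1 was 2-fold lower with heme and 18 with vehicle, with medians of -0.62 and -0.82. The 1 was Top2a, a topoisomerase of dividing cells, which read 7.89, 6.76 and 5.47 with heme and 8.33, 7.04 and 5.96 with vehicle.

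Among 26 cell cycle inhibitors, D cyclins and p53 targets, 3 were 2-fold higher and 3 lower with heme. Ccnd2 and Ccnd1, cyclins of the G1 phase, were lower in both treatments, by -1.74 and -1.34 for Ccnd2 and by -1.08 and -1.85 for Ccnd1. Plk2, a stress-induced kinase, was lower by -1.36 with heme and -0.14 with vehicle. Gadd45g, a stress sensor, read 6.21 and 7.38 with heme and 7.62 and 8.07 with vehicle, so it was higher at 24 h and still below vehicle.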

How the data were processed

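RNA was hybridized to 6 single-colour arrays, 1 for each treatment and time. The authors deposited log2 expression values; RMA and quantile normalization were done in ArrayStar, per the series' design text and the submitters' processing notes; versions and scanner values were not used here. Of 35556 probe sets, 21789 named 1 gene in the supplied platform annotation, 1621 several and 12146 were not listed. Where a gene had more than 1 probe set (998 genes), that of the highest mean level was used. Symbols were matched to RefSeq GRCm38.p6 for 21698 probe sets.

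Changes are differences of deposited log2 values, counted at 2-fold; no test was possible. A level below 5.37 was raised to it where a change is given as "at least". RMA compresses differences of dim probe sets. The named genes were the 15 highest and 15 lowest heme changes, the 8 highest and 8 lowest differences from vehicle among genes past 2-fold, all ranked after levels below 5.37 were raised to it, up to 4 members a pathway list, 11 by name, and marker genes where their list is counted; predicted genes and small RNAs were counted only. The members and the 42 lists were chosen with earlier results of these data known, and other list members named were chosen after their values were seen. Alternatives were other normalizations (limma 3.58.1 in R 4.3.3), other level filters, averaged probe sets, a linear offset of 16 and thresholds of 1.5-fold and 4-fold. The counting was tested on simulated data (Python 3.11.15).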

Additional observations from a re-analysis of the deposited data

Results flagged for a closer look

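Ppbp stood out because its 1 heme array pair went up from 6 to 24 h (7.87 to 9.17) and its 1 vehicle pair went down (6.75 to 4.97), a difference between the changes of 3.08. With the 24 h vehicle level raised to 5.37 the difference is at least 2.68. With 1 array a side this difference was not tested. At 72 h Ppbp read 11.37 with heme and 6.29 with vehicle.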

How the results depend on the processing

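Each condition has 1 array, so no array could be left out. No paired analysis was possible because all 6 arrays carry the same replicate number, 1, and a block of it would hold every array. In the order heme higher, heme lower, vehicle higher, vehicle lower, heme change above and heme change below the vehicle change, the counts were 990, 546, 252, 460, 1053 and 456 at 1.5-fold, and 10, 7, 3, 13, 11 and 4 at 4-fold. With the level filter at the 75th percentile, vehicle lower was 87 and heme change below vehicle change 56. With an offset of 16, vehicle lower was 84, heme change above 87 and below 60. Median-centring gave 256 above and 62 below. A second quantile normalization, cyclic loess, the mean of probe sets, no level filter and levels raised to the table median left all 6 counts within 1.5 times. List medians that changed sign were metalloproteinases with heme (-0.0508) and the dendritic cell difference (-0.30) at the 75th percentile filter, eosinophil markers with heme (0.0083) under median-centring, and osteoclast markers with vehicle (-0.0281) without a level filter. The cause was not tested. Medians within 0.1 of 0 were less firm. With another normalization the sign changed for the heme medians of NF-kB regulators, AP-1 genes, MHC class II genes and scavenger receptors, and for the difference medians of AP-1 genes, MHC class II genes, myeloid transcription factors and ribosomal proteins. In addition, 10 small medians changed sign only with another filter, the raised levels or averaged probe sets. Of the named genes, 283 of 300 changes kept their side of 2-fold under median-centring and 287 with the offset; no change of a named gene turned direction while past 2-fold. Dim signal limits genes near 5.37, whose changes are only bounds.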

Other observations

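Matrix and lipid genes gave further values. Mmp2, a gelatinase, read 5.55, 7.39 and 7.80 with heme and 6.06, 6.11 and 6.78 with vehicle at 6, 24 and 72 h, and was the 1 gene of 20 metalloproteinases and inhibitors that was 2-fold higher with heme. Acta2, actin of smooth muscle and myofibroblasts, changed by 1.18 with heme and by -0.48 with vehicle, while Pdgfra, Pdgfrb, Lum and Cxcl12 stayed below 5.37 on all 6 arrays. The other 10 of 14 stromal and fibroblast markers measured were kept, with a heme median of 0.21 and a vehicle median of -0.18. With heme 7 of 10 were above 0, beside 56.9% of all genes kept, and only Acta2 was past 2-fold. The summed linear level of the 14 was 768, 941 and 2380 with heme and 985, 851 and 1430 with vehicle at 6, 24 and 72 h. The part of stromal cells in the other values was not tested. Clec4d, a lectin that senses mycobacterial glycolipid, was at 9.85, 11.22 and 11.52 with heme and 8.68, 8.80 and 9.71 with vehicle. Apoe, the lipid carrier, was at 6.60, 7.10 and 11.22 with heme and 6.96, 8.70 and 11.12 with vehicle: its increase by 24 h was 0.49 with heme and 1.74 with vehicle, and the treatments met at 72 h. Fcgr4, an Fc receptor for IgG, had the same order, with 0.73 and 1.51.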
